A study of Mus musculus with 2 samples.

Results

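The cells described here are lung cells with transcripts of the T cell receptor complex and of interferon-induced genes, most of them T cells by their markers. They were chosen in the lung library by a rule on unique molecular identifiers (UMIs), the tags that mark each captured RNA molecule. A cell needed at least 200 genes, at most 10% mitochondrial UMIs, at least 1 UMI of the T cell receptor complex genes Cd3d, Cd3e and Cd3g, fewer than 3 UMIs of the cell cycle genes Mki67, Top2a, Birc5, Cdk1 and Ccna2, and at least 3 UMIs over the 5 interferon-induced genes Ifit1, Ifit3, Usp18, Rtp4 and Isg15. Of 8730 lung barcodes, 8225 passed the filters other than that on the 5 genes, and 360 of these (4.38%, exact 95% Clopper-Pearson interval 3.94 to 4.84) held at least 3 UMIs of them. These 360 are called interferon-high cells, out of 15331 barcodes in the whole series. The reference was the 6067 lung cells with 0 UMIs of the 5 genes, called interferon-zero cells.

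The series holds 1 single-cell library from adult mouse lung and 1 from adult mouse back skin. Lung cells came from Foxp3-GFP C57Bl/6 mice (Tachilla strain) and skin cells from Foxp3-CreERT2GFP C57Bl/6 mice. In both tissues collagenase released the cells, and sorting kept CD45+ CD3+ CD4+ GFP+ cells, where GFP stands for expression of Foxp3, the transcription factor gene that defines regulatory T cells (Tregs). No interferon treatment or infection is named in the labels. There was 1 library per tissue, so no difference below has a replicate check, no test was run, and all intervals cover counting error only.

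Interferons are cytokines released during infection and tissue stress. Type I interferons bind the receptor of Ifnar1 and Ifnar2, and the kinases JAK1 and TYK2 then activate transcription factors that join IRF9 on a DNA motif called the interferon-stimulated response element (ISRE). Interferon gamma binds the receptor of Ifngr1 and Ifngr2 and acts through another motif, the gamma-activated site (GAS). The induced genes encode proteins that sense or block viruses, GTPases that act on vacuoles of intracellular microbes, and parts of the MHC class I pathway, and many of them answer both kinds of interferon.

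The 5 rule genes chose the cells, so their values are a description. Isg15, the gene of a ubiquitin-like modifier, had UMIs in 256 of the 360 cells, Rtp4, a chaperone gene of G protein-coupled receptors, in 231, Ifit1, which encodes a protein that binds foreign RNA, in 195, Usp18, the gene of the protease that removes ISG15 and dampens the type I receptor, in 153, and Ifit3 in 137. All 5 genes were found together in 24 cells, and 40 cells passed on 1 gene alone. The sum was 3 in 152 cells, 4 in 68, 5 to 9 in 99 and 10 or more in 41, with a maximum of 37, so most of the cells lay near the threshold. Just below it, 374 cells held 2 UMIs. The interferon-high cells were deeper. The median depth was 3115.5 UMIs in interferon-high and 2297 in interferon-zero cells.

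Depth was therefore matched. Each interferon-high cell was given up to 3 interferon-zero cells within 10% of its UMIs outside the 5 genes. This gave 359 against 1074 cells with a median of 3104 UMIs in both, and 1317815 against 3892282 UMIs in all. Counts were summed per group and scaled to CPM, the counts of a gene per 1000000 UMIs of its group, without the 5 genes. Genes with at least 20 CPM in either group are called measured, and a gene at least 2-fold apart on the log2(CPM + 5) scale is called higher or lower, a size of difference and not a test.

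Some of the 360 cells carried markers of other cell types, although 355 of the 360 held at least 3 UMIs of the T cell marker list. Whether the cells with such markers were T cells was not tested. With 9 marker genes left out that are spread thinly over most cells, among them Ighm, Ctss and Cst3, 27 of the 360 (7.50%) held at least 3 UMIs of markers of non-T cell types, against 148 (2.44%) of the interferon-zero cells. With those 9 genes kept, the B and plasma cell list alone reached 3 UMIs in 120 of the 360 (33.3%) and in 14.1% of interferon-zero cells, and 71 matched interferon-high cells were under 3 UMIs summed over all other-type markers. In 13 interferon-high cells the 7 endothelial markers, among them Cdh5 (vascular cadherin), Cldn5 (a tight junction gene) and Ramp2, summed to 28 to 161 UMIs, against at most 4 in the other 347. Those 13 held a median of 2 Cd3 UMIs (1 to 10), against 8 (1 to 47) in the other cells. On the interferon-zero side a single cell held 1389 UMIs of the neutrophil markers, and other cells held up to 3268 UMIs of alveolar epithelial markers. In the matched cells the endothelial list summed to 737 CPM in interferon-high and 216 CPM in interferon-zero cells, and the 7 alveolar markers to 1153 and 9535 CPM. The results are hence given also for marker-free cells, an alternative chosen after seeing the data, in which cells with at least 3 UMIs of such markers, without the 9 spread genes, were left out. In marker-free cells these sums were 105 against 117 CPM and 218 against 219 CPM. The step removed cells by these same genes, apart from Pecam1 and Sftpc, so the low sums follow largely from it. The step kept 333 interferon-high cells (4.17% of 7990) and matched them with 999 interferon-zero cells, with a median of 3053 UMIs in both. All 333 cells held at least 3 UMIs of the T cell marker list, as did 99.6% of marker-free interferon-zero cells before matching. That list includes the Cd3 genes the rule required, so these shares are a description. At least 3 UMIs of the 6-gene Treg marker list were held by 72.7% of the 333 cells, against 65.5% of marker-free interferon-zero cells before matching. Those interferon-zero cells were shallower, with a median of 2290 UMIs against 3057. In matched marker-free cells the Treg list summed to 1890 against 1843 CPM. The shares of 7.50% against 2.44% and 33.3% against 14.1% above were likewise taken before matching. The 8 B and plasma cell markers still summed to 750 CPM in the 333 cells and 614 CPM in matched interferon-zero cells, of which Ighm made up 704 and 578 CPM, and 2 of the 8, Ms4a1 among them, were at 0 UMIs in both groups. The 12 monocyte and macrophage markers summed to 290 against 211 CPM, of which Ctss made up 244 and 173 CPM, and 7 of the 12, Csf1r and Fcer1g among them, were at 0 UMIs in both groups. A count of 0 allows up to 2.59 CPM in the 333 cells. The part of these transcripts in the results was not tested.

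The rule's own cells and the marker-free cells gave different leading genes. In the rule's cells 5091 genes were measured, of which 141 (2.77%) were higher and 31 (0.609%) lower in interferon-high cells. In marker-free cells 80 of 4847 (1.65%) were higher and 4 (0.0825%) lower. Of the 141, 63 were members of 6 interferon-related lists (antiviral effectors, nucleic acid sensors, ISG15 conjugation, receptors and signalling, interferon gamma GTPases, MHC class I presentation), and of the 80, 64 were. Without the cells carrying other markers, the higher genes were thus fewer and mostly on those lists.

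Among genes of at least 50 CPM, the 20 with the highest ratio in the rule's cells were 6 interferon-induced genes and 14 others. Of these 14, Cldn5, Ramp2 and Cdh5 are on the list of 7 endothelial markers used here. The interferon-induced ones were Oasl2, Iigp1, Zbp1, Xaf1, Irgm1 and Phf11a. The other 11 were Cyp1a1, Cyp4b1, Hpgd, Thbd, Aqp1, Clec14a, Tspan7, Plvap, Ace, Gpihbp1 and Acvrl1. Absence from that short list does not mark a gene as coming from another cell type. Cldn5 stood at 221 CPM in interferon-high and 32.4 CPM in interferon-zero cells, but at 3.45 and 2.89 CPM in marker-free cells. Cldn5, Ramp2 and Cdh5 were among the genes used to leave cells out, so their fall follows from that step. Cyp1a1, a cytochrome gene, went from 79.7 against 6.68 CPM to 1.73 against 1.16 CPM. Each of these 14 genes stood at or below 5.18 CPM in marker-free interferon-high cells, which is too low to be called measured. The 10 lowest were S100a8, Lyz1, Ccl21a, S100a9, Sftpa1, Napsa, Sftpc, Lyz2, Chil1 and Sftpd, genes known from neutrophils, macrophages, lung epithelium and lymphatic vessels. Sftpc, surfactant protein C, stood at 955 against 7798 CPM in the rule's cells and at 182 against 181 CPM in marker-free cells. The plot of gene levels shows both comparisons side by side.

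**Figure D1:**
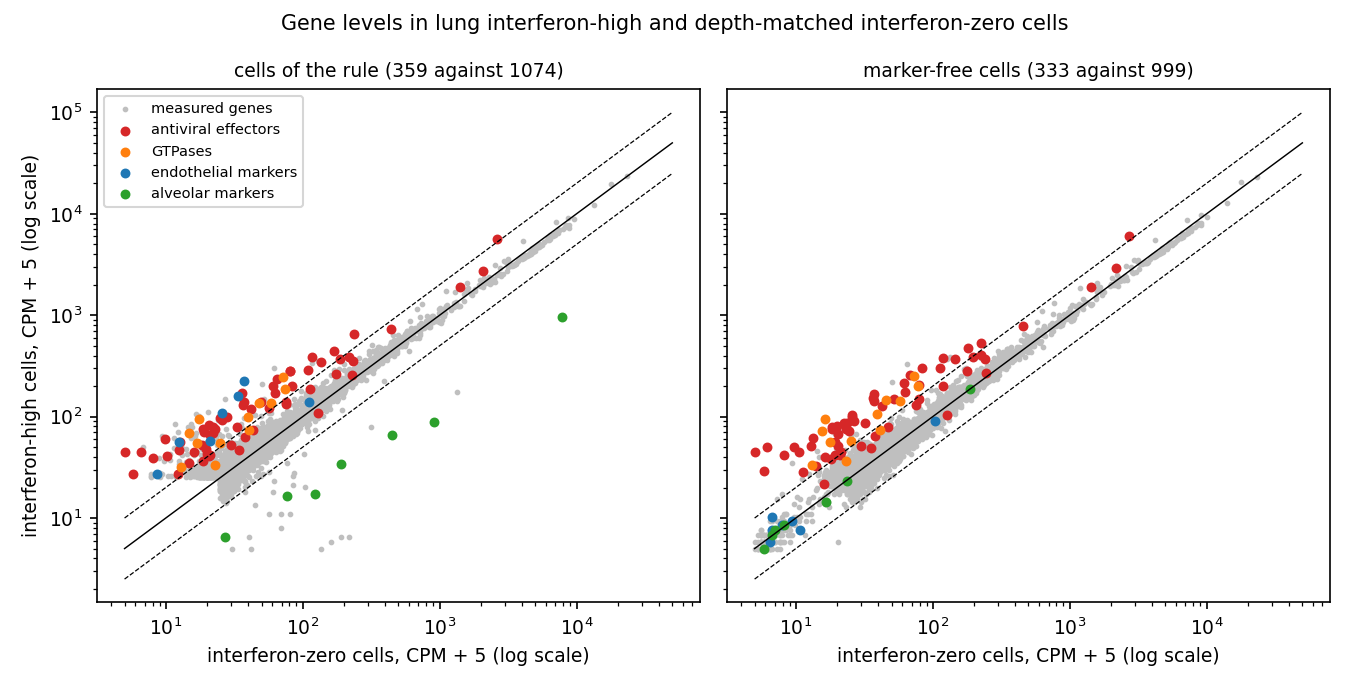
Each point is a measured gene, placed by its level in depth-matched interferon-zero cells (x) and interferon-high cells (y), both as CPM + 5 on log scales. The solid line marks equal levels and the dashed lines 2-fold. The endothelial markers (blue) above the lines and the alveolar markers (green) below them at left lie near the solid line at right. Most of these markers were used to leave out cells at right. Most antiviral effectors (red) and GTPases (orange) lie above it in both.

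Gene levels and folds from here on are those of marker-free cells unless the rule's cells are named. Folds are plain CPM ratios with exact binomial intervals, and log2 ratios include the added 5 CPM. Over all 4847 measured genes the median log2 ratio was 0.04.

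The antiviral effectors were the list with the most genes called higher. Of 85 list members 80 were in the files and 61 were measured, of which 45 were higher, 0 lower and 16 within 2-fold, with a median log2 ratio of 1.42. In the rule's cells the count was 44 of 62 and the median 1.46. Rsad2, which encodes the antiviral enzyme viperin (ENSMUSG00000020641, chromosome 12, 26442746 to 26456452), had 52 UMIs in interferon-high and 4 in the 3 times more numerous interferon-zero cells, 44.9 against 1.16 CPM, a ratio of 38.8 (14.3 to 148). Ifit3b, near-identical to Ifit3 and therefore open to shared reads, had 46 UMIs against 0, at least 45.8-fold higher by the limit of 3 counts over the group. Mx1, a GTPase gene, had 28 UMIs against 3, a ratio of 27.8 (8.60 to 143). These 3 genes were close to absent in interferon-zero cells. For Ifit3b this may follow in part from the choice of those cells by 0 UMIs of Ifit3.

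Others had more UMIs in interferon-zero cells. Ifi27l2a, a small mitochondrial protein gene (ENSMUSG00000079017, chromosome 12, 103442167 to 103443680), stood at 5983 CPM (5843 to 6125) against 2711 CPM (2657 to 2767), a ratio of 2.21 (2.14 to 2.28). Bst2, the gene of tetherin, which holds budding virus at the cell surface (ENSMUSG00000046718, chromosome 8, 71534255 to 71537456), stood at 373 CPM (339 to 410) against 113 CPM (102 to 125). Its ratio was 3.31 (2.88 to 3.80). Ly6a, the gene of the surface protein Sca-1, stood at 530 against 221 CPM, and Isg20, an exonuclease gene, at 147 against 31.8 CPM. Xaf1 (ENSMUSG00000040483, chromosome 11, 72301629 to 72313733), a gene linked to cell death, was 5.05-fold (3.98 to 6.45) higher and Cmpk2, a nucleotide kinase gene next to Rsad2, 11.7-fold (5.91 to 25.1). Oasl2, of the oligoadenylate synthetase family (ENSMUSG00000029561, chromosome 5, 114896936 to 114912234), had a ratio of 9.70 (5.45 to 18.2), at 44.9 against 4.63 CPM.

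Several gene families were higher as blocks, although near-identical copies can share reads. Ifi206, Ifi208, Ifi213, Ifi214, Ifi203, Ifi209 and Mndal, DNA-binding proteins of one gene cluster, were all higher, Ifi208 by 4.68-fold (3.45 to 6.38) and Ifi206 by 3.96-fold (3.31 to 4.74). Phf11a, Phf11b and Phf11c, a cluster of zinc finger genes, were higher by 6.79-fold (4.33 to 10.9), 3.75-fold (3.19 to 4.42) and 4.56-fold (3.36 to 6.22). In the Schlafen family, Slfn1, Slfn5 and Slfn8 were higher and Slfn2 was within 2-fold, at 367 against 236 CPM. Pml and Daxx, genes of nuclear bodies, were 5.32-fold (3.66 to 7.81) and 3.21-fold (2.51 to 4.11) higher. Cd274, which encodes the checkpoint ligand PD-L1, stood at 45.8 against 15.3 CPM. Among the 16 within 2-fold were Zc3hav1 (262 against 240 CPM), Shisa5 (2906 against 2160 CPM), Ly6e (1873 against 1428 CPM) and Ifi27 (99.3 against 122 CPM), of which Ifi27 alone was below 1 as a ratio.

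Among genes that sense viral nucleic acids, 4 of 7 measured were higher. Zbp1, a sensor that triggers inflammatory cell death (ENSMUSG00000027514, chromosome 2, 173206612 to 173218923), stood at 323 CPM (291 to 357) against 59.9 CPM (52.0 to 68.7), a ratio of 5.39 (4.54 to 6.42). The RNA helicase sensor genes Ifih1 (MDA5), Dhx58 (LGP2) and Ddx58 (RIG-I) were 6.96-fold (3.71 to 13.7), 6.08-fold (3.77 to 10.02) and 2.60-fold (1.81 to 3.72) higher. The other 3 were within 2-fold. Tmem173, which encodes STING, stood at 52.7 against 49.2 CPM, the adaptor gene Myd88 at 28.5 against 21.4 CPM and Tlr7, a receptor gene for RNA in endosomes, at 20.7 against 8.68 CPM. In the ISG15 conjugation pathway the E2 and E3 genes Ube2l6 and Herc6 were higher, by 4.36-fold (2.9987 to 6.37) and 2.98-fold (1.98 to 4.49), and the E1 gene Uba7 stood at 37.1 against 20.3 CPM.

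The receptor genes did not differ in this way. Ifnar1 stood at 141 CPM (120 to 164) against 124 CPM (113 to 137), Ifnar2 at 49.2 against 53.0 CPM, Ifngr1 at 424 against 434 CPM (the ratio's interval is 0.880 to 1.08) and Ifngr2 at 56.1 against 75.8 CPM, a ratio of 0.740 (0.555 to 0.975). Of 19 measured receptor and signalling genes, 3 were higher, and all 3 are themselves induced by interferon. Irf7, the factor that amplifies type I interferon, was 4.77-fold (3.89 to 5.86) higher, at 217 against 45.4 CPM, and Stat2, a transducer of the type I receptor, 3.39-fold (2.29 to 5.01), at 51.0 against 15.1 CPM. Irf9 stood at 137 against 72.7 CPM. Irf1, a target of interferon gamma, stood at 99.3 against 81.6 CPM, and the feedback inhibitor genes Socs1 and Socs3 at 36.3 against 33.0 CPM and 62.2 against 88.6 CPM.

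Interferon transcripts themselves were rare. Of 20 type I and type III interferon genes, Ifnz alone had UMIs in the lung library, 4 over 8641 barcodes and 0 in the 360 cells. Ifng had 101 UMIs in the library, of which 16 were in interferon-high cells before matching and 60 in interferon-zero cells. In the matched marker-free cells it stood at 13.8 against 5.50 CPM, below the level for a measured gene. A source outside the sorted cells was not measured here.

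The GTPases that interferon gamma is best known to induce were higher along with the antiviral genes. Of 12 measured, 10 were higher in the rule's cells and in marker-free cells, with medians of 1.32 and 1.40. Iigp1, an immunity-related GTPase gene, stood at 90.7 CPM in interferon-high and 11.3 CPM in interferon-zero cells, a ratio of 8.03 (5.51 to 11.9). Irgm1, which governs the other members (ENSMUSG00000046879, chromosome 11, 48861968 to 48871683), stood at 67.4 CPM (53.3 to 84.1) against 10.4 CPM (7.30 to 14.4), which is 6.46-fold (4.30 to 9.88). Ifi47, Gbp2, Gbp6 and Igtp stood at 249, 141, 51.8 and 193 CPM, against 67.7, 40.5, 12.7 and 73.2 CPM. Gbp3 and Gbp8 were within 2-fold. Guanylate-binding protein genes are close copies of one another, so single members are uncertain.

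MHC class I genes were shifted little and together. None of 23 measured members was called in either direction, beside 1.65% of all genes higher and 0.0825% lower. Of the 23, 22 had a log2 ratio above 0, which left a median of 0.41 beside 0.04 for all genes. The peptide transporter gene Tap1 stood at 180 CPM (156 to 206) against 91.8 CPM (81.9 to 102), a ratio of 1.96 (1.64 to 2.34). Tapbp, H2-T23 and H2-T22 had ratios of 1.76 (1.53 to 2.02), 1.78 (1.49 to 2.12) and 1.72 (1.53 to 1.94). The highly expressed B2m and the classical class I genes H2-K1 and H2-D1 had ratios of 1.30 (1.27 to 1.34), 1.15 (1.09 to 1.21) and 1.19 (1.15 to 1.24). Members of the H2-Q and H2-T families can share reads.

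Of the 80 higher genes, 16 were on none of the 6 interferon lists, and those named here were picked after their values were seen. Among them were Ccl5, Serpina3g, Mitd1, Trafd1, Samd9l, Parp10, Cxcl10, Ccrl2, Casp1, Clic4, Tmem184b, Zufsp, Psme2b, BC051226 and BC147527. Serpina3g, which encodes a serine protease inhibitor, stood at 64.8 against 15.6 CPM, Trafd1, a feedback gene, at 61.3 against 20.3 CPM and Samd9l, an antiviral gene, at 63.1 against 22.6 CPM. Cxcl10, the gene of a chemokine that binds CXCR3, stood at 22.5 against 7.53 CPM. The caspase gene Casp1 stood at 25.9 against 9.84 CPM and was 1 of 2 members called among 12 measured apoptosis genes. Casp8 stood at 135 against 74.7 CPM. The 4 lower genes were Slc25a40, Mapk11, Tmem5 and Ctla2a, all between 20 and 30 CPM in interferon-zero cells, where few counts were at hand. Ctla2a was higher in the rule's cells, at 92.6 against 32.1 CPM, and lower in marker-free cells, at 10.4 against 26.1 CPM.

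**Figure D2:**
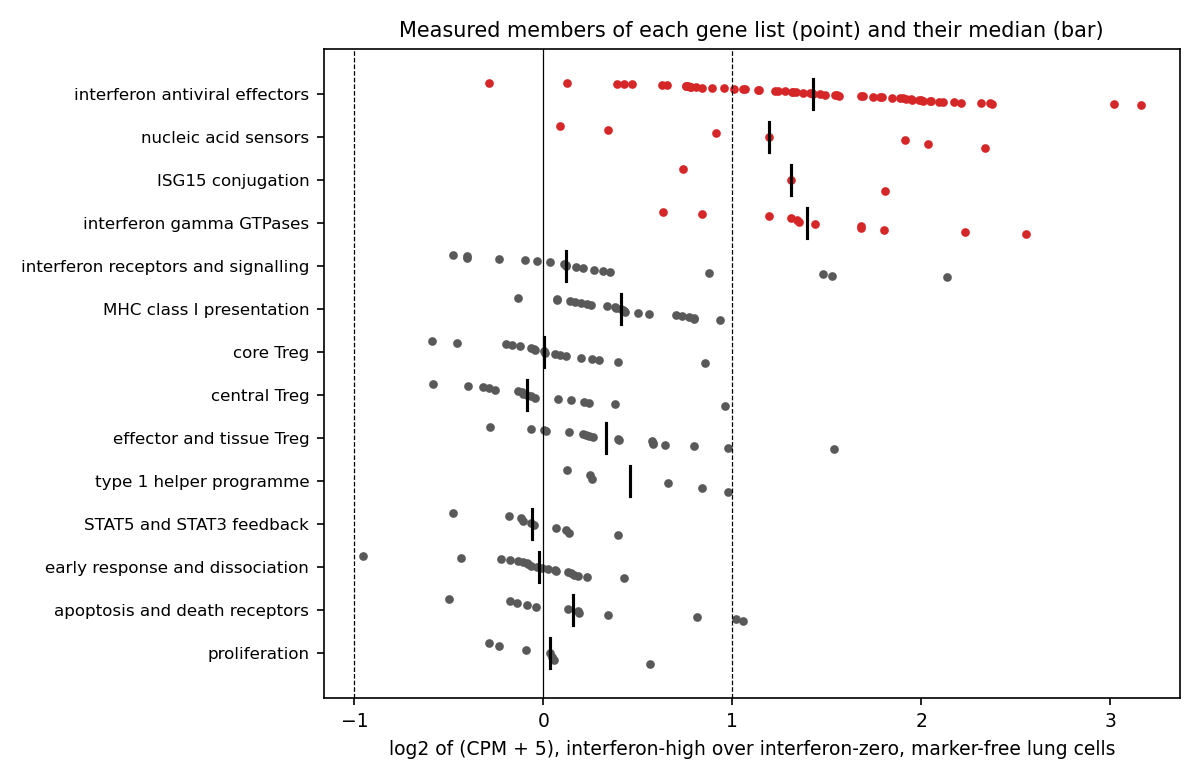
Each point is a measured member of a gene list, placed by its log2 ratio of interferon-high over interferon-zero marker-free lung cells (x), with a bar at the median of the list. Dashed lines mark 2-fold. Most members of the 4 red lists lie beyond 2-fold, with medians from 1.19 to 1.42, and the medians of core and central Treg genes are 0.00372 and −0.09.

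Treg identity genes were close in both groups. Of 18 measured core Treg genes 0 were called, in the rule's cells and in marker-free cells. Of all genes measured in marker-free cells only 1.65% were higher and 0.0825% lower, so a count of 0 in a list this short says little. The median log2 ratio of the core list was 0.00372, beside 0.04 for all genes. Foxp3 (ENSMUSG00000039521, chromosome X, 7573644 to 7595245) was low in this library and below the level for a measured gene. It had 14 and 44 UMIs, which is 12.1 CPM (6.61 to 20.3) in interferon-high and 12.7 CPM (9.25 to 17.1) in interferon-zero cells. At least 1 of its UMIs was present in 14 of 333 interferon-high cells (4.20%, 2.32 to 6.95) and 198 of 5919 interferon-zero cells (3.35%, 2.90 to 3.84), and in 0 of 31 cells that lacked Cd3 UMIs and held alveolar markers, which allows up to 11.2% by the exact interval. Median depths were 3057, 2290 and 5008 UMIs. Ctla4, the inhibitory receptor gene, stood at 335 against 321 CPM and Ikzf2, which encodes Helios, at 630 against 548 CPM. Il2ra, the gene of the interleukin 2 receptor alpha chain, stood at 82.1 CPM (66.4 to 100.3) against 115 CPM (104 to 126), and Ikzf4 at 18.1 against 29.8 CPM. Lag3, a checkpoint gene, stood at 44.9 against 22.6 CPM, a ratio of 1.99 (1.37 to 2.86). Cd4, a gene of the sort, was level at 114 CPM in both, and Ptprc, which encodes CD45, stood at 472 against 464 CPM.

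Central Treg genes were likewise not called, 0 of 17, beside 1.65% of all genes higher and 0.0825% lower. Their median was −0.09. Ccr7, the lymph node homing receptor gene, stood at 481 CPM (442 to 523) against 635 CPM (609 to 663). Thinned to 1000 UMIs, 27.6% of interferon-high and 37.2% of interferon-zero cells held a Ccr7 UMI, and without thinning the shares were 55.0% and 56.0%. Klf2 stood at 2034 against 2160 CPM. Ly6c2 stood at 34.5 against 15.3 CPM and has near-identical neighbours.

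Effector and tissue Treg genes leaned to the interferon-high cells by less than 2-fold. Of 18 measured, 1 was called higher, Ccl5, beside 1.65% of all genes higher and 0.0825% lower, so this count says little. The lean is that of the median, 0.33 beside 0.04 for all genes. Ccl5, a chemokine gene, stood at 366 against 123 CPM, but 10 of the 360 cells held 360 of its 435 UMIs (82.8%), so this level rests on few cells. Cxcr3, whose protein binds the chemokines CXCL9 and CXCL10, stood at 92.4 CPM (75.7 to 112) against 44.6 CPM (37.8 to 52.2), a ratio of 2.07 (1.60 to 2.67) that fell short of 2-fold on the scale with 5 added. In the rule's cells it was called higher, at 95.6 against 44.2 CPM. A Cxcr3 UMI was found in 15.6% of interferon-high and 4.19% of interferon-zero cells, in 5.71% and 1.88% once thinned, and in 0 of the 31 alveolar-marker cells. S100a6 and S100a4, calcium-binding protein genes of activated T cells, stood at 1087 against 623 CPM and 440.5 against 294 CPM. Areg, the gene of the repair factor amphiregulin, stood at 45.8 against 48.1 CPM.

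The effector share of the cells was looked at in another way, chosen after the values above were seen. Each marker-free cell was thinned to 1000 UMIs and placed by its UMIs of the effector list, a range and not a cell type. Cells with 5 or more such UMIs made up 33.9% of interferon-high and 15.4% of interferon-zero cells. Among the 1379 cells in that range 8.19% (6.80 to 9.77) were interferon-high, against 3.32% (2.67 to 4.08) of the 2647 cells with 2 to 4 and 3.38% (2.84 to 4.001) of the 3900 with 0 or 1. These cells were also deeper, with a median of 3177 UMIs against 2279 and 2295.5. With the 5 rule genes counted after thinning the shares were 1.89% (1.24 to 2.75), 0.831% (0.522 to 1.26) and 0.821% (0.562 to 1.16). As a ratio the antiviral list was about as far apart in each range, with summed levels 1.74, 2.16 and 1.98 times those of interferon-zero cells from the highest range to the lowest. The interferon-zero cells themselves differed, with sums of 12735, 8801 and 8266.5 CPM in the same order. Sums of this list, here and below, weigh its abundant members most, among them Shisa5 and Ly6e, both within 2-fold. Ifi27l2a alone made up 2170 of 9344 CPM in marker-free cells with 0 UMIs of the 5 rule genes. In those with 10 or more it made up 7996 of 28410 CPM. The GTPases likewise stood at 2.62, 2.99 and 2.74 times.

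Other programmes differed little. The type 1 helper list, which shares Cxcr3 with the effector list, had 0 of 6 measured genes called and a median of 0.46, with the cytotoxic granule gene Nkg7 at 70.8 against 37.3 CPM. In the rule's cells 1 of 7 was called, Cxcr3. Of 20 early response genes, which tissue digestion also induces, 0 were called, and the median was −0.02. Fosb stood at 21.6 against 46.6 CPM there, beside 374 against 277 CPM for the heat shock gene Hspa1a and 64.8 against 65.1 CPM for its near-identical neighbour Hspa1b. None of 10 cytokine feedback genes and 0 of 7 proliferation genes were called, the latter partly fixed by the filter on cycling cells. With 1.65% of all measured genes higher and 0.0825% lower, counts of 0 in lists this short say little.

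The interferon genes outside the rule graded with the sum of the 5 rule genes across all marker-free cells, as the plot of levels by rule sum shows. Bst2 stood at 106, 148, 204, 211, 342, 513 and 556 CPM in cells with sums of 0, 1, 2, 3, 4, 5 to 9 and 10 or more. Zbp1 went from 60.5 CPM (56.6 to 64.5) to 550.4 CPM (443 to 676) between the ends of this range. Ifi27l2a went from 2170.1 to 7996 CPM, and Rsad2 from 1.72 CPM (1.12 to 2.52) to 127 CPM (78.6 to 194). Cells with 1 UMI of the 5 genes were already above those with 0, at 2919 CPM for Ifi27l2a. On either side of the threshold, at sums of 2 and 3, the antiviral list summed to 13534 and 15326 CPM and the GTPases to 707 and 848 CPM, in 362 and 138 cells. The groups were made from the sum the rule used, so these levels are a description.

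**Figure D3:**
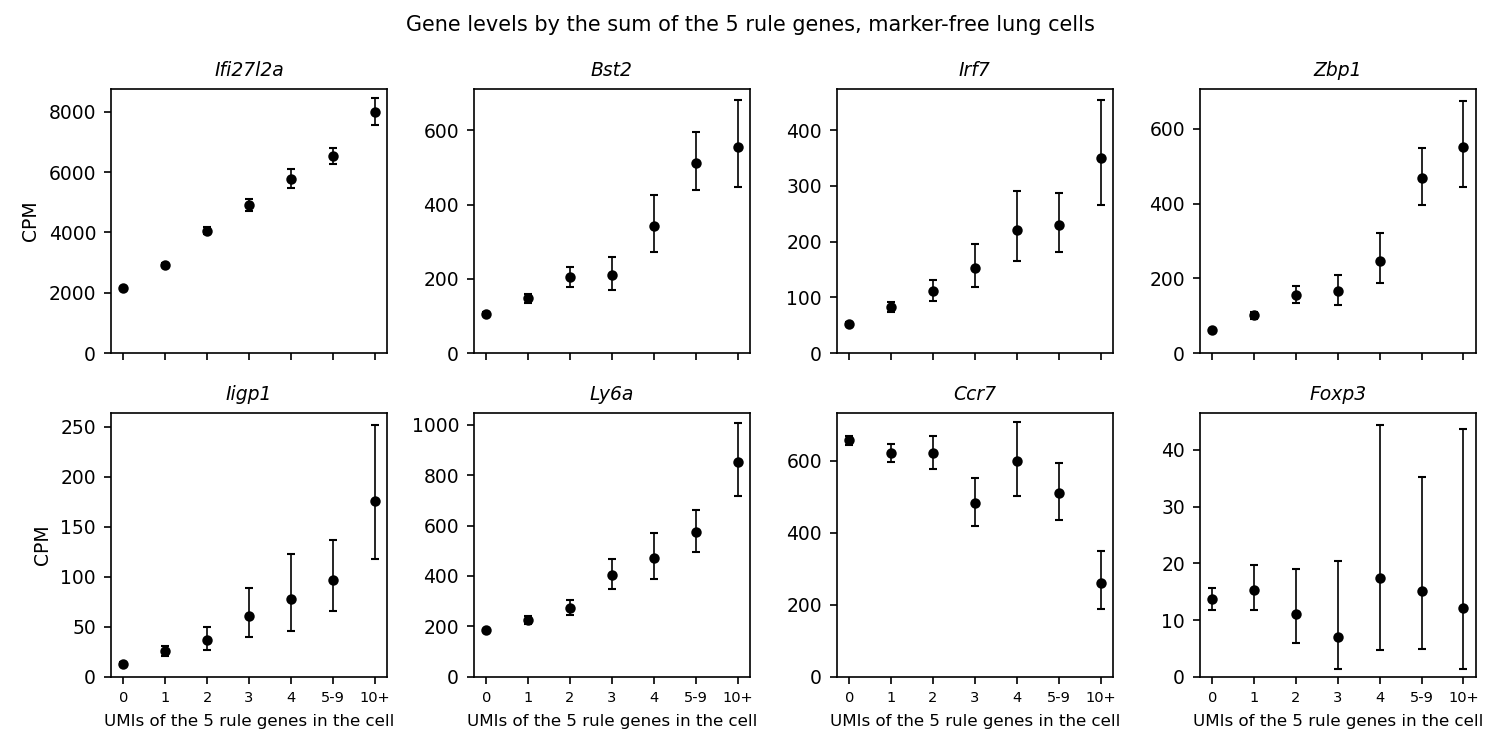
Each panel gives the level of 1 gene in CPM (y, linear from 0) in marker-free lung cells grouped by their UMIs of the 5 rule genes (x), with exact 95% Poisson intervals as bars. Ifi27l2a, Bst2, Irf7, Zbp1, Iigp1 and Ly6a climb across the groups, Ccr7 is lowest at 10 or more, and the intervals of Foxp3 overlap throughout.

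Ccr7 stood at 656 CPM (643 to 669) at 0 and 260.1 CPM (188 to 350) at 10 or more, and the whole central list at 6581 and 4676 CPM. The effector list went the other way, from 3488 to 9151 CPM, and core Treg genes stood at 3968 and 4349 CPM. Median depth differed along the groups, from 2290 UMIs at 0 to 3870 at 10 or more, in 39 cells. The part of depth in these gradients was not tested.

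Single cells varied widely. At 1000 UMIs per cell, the 333 interferon-high cells held 4 to 61 UMIs of the antiviral list, with a median of 18 and quartiles of 13 and 24. The 5863 interferon-zero cells that reached this depth held 0 to 41, with a median of 8 and quartiles of 6 and 11. The groups overlapped. Of the interferon-high cells 176 (52.9%) were above 17 UMIs, the 95th percentile of interferon-zero cells, and 20 (6.01%) were at or below the median of 8. Across the 333 cells, the antiviral sum went with those of the GTPases (Spearman 0.34), MHC class I genes (0.35) and effector genes (0.32), and hardly with core Treg (0.05) or central genes (−0.07). These values describe cells of 1 library at 1 depth.

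**Figure D4:**
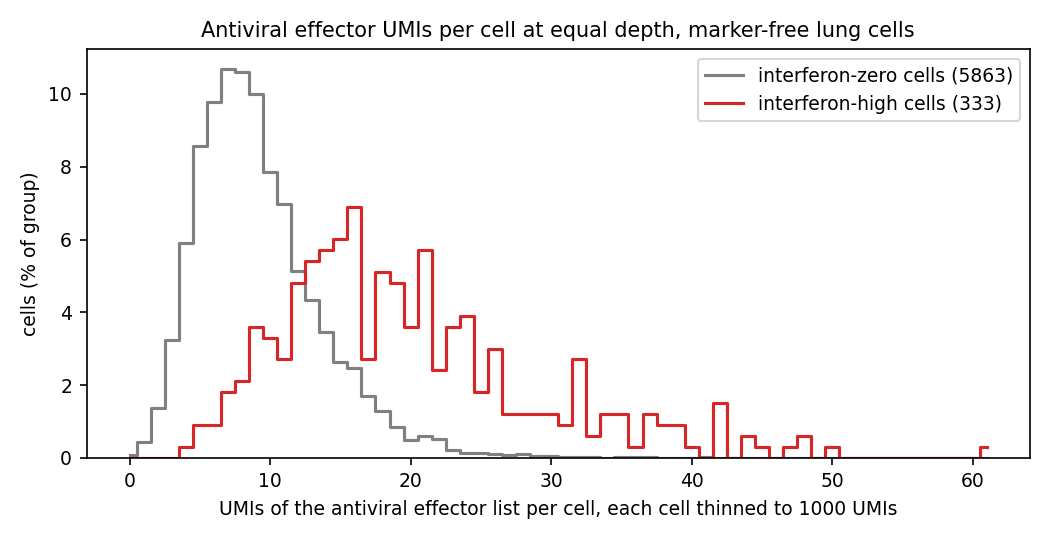
The share of cells in percent of each group (y) is plotted against the UMIs of the antiviral effector list in a cell thinned to 1000 UMIs (x), for 333 interferon-high and 5863 interferon-zero marker-free lung cells. The median is 18 in interferon-high and 8 in interferon-zero cells, and the distributions overlap.

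Shares of cells with a UMI gave the same order for single genes. A Zbp1 UMI was found in 55.3% (49.7 to 60.7) of interferon-high and 13.3% (12.5 to 14.2) of interferon-zero cells, 30.03% and 5.87% once thinned. Iigp1 was found in 18.9% and 2.91% of cells, 7.21% and 1.33% once thinned, and Irf7 in 45.0% and 12.0%, or 21.3% and 5.27%. In the 31 alveolar-marker cells the raw shares were 0%, 3.23% and 3.23%. Ifi27l2a was found in 99.1% of interferon-high and 89.8% of interferon-zero cells, and in 45.2% of the alveolar-marker cells.

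Promoter sequences from RefSeq (GRCm38.p6) were searched for the letters of both interferon motifs on both strands, in the 250 bases before each start. The ISRE was taken as GAAA, any 2 bases and GAAA again, and the GAS as TTC, any 3 bases and GAA. Of the 80 higher genes 63 had an entry, and 28 of these (44.4%) held an ISRE match, against 3.46% of all 27025 genes in the table and 4.07% of the measured genes. Among higher antiviral effectors the count was 19 of 39 (48.7%), among higher GTPases 5 of 6 and among measured MHC class I genes 3 of 20. A GAS match stood in 9 of the 63 (14.3%), against 8.13% of all genes, and in 3 of the 6 GTPases. A match of letters is a description and not a binding site.

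Of the 20 genes leading the rule's cells, 12 had an entry, and Irgm1 and Phf11a among them held an ISRE match. These are printed 5′ to 3′ with Xaf1, which has none, and with Bst2 and Rsad2, which were picked after their values were seen as a gene high in both groups and one nearly absent from interferon-zero cells. Capitals mark the ISRE matches, and positions are those of the leftmost base counted back from the start, where the base just before the start is −1. The windows are chr11:48871421-48871670 (minus strand), chr14:59297523-59297772 (minus), chr11:72301379-72301628 (plus), chr8:71537473-71537722 (minus) and chr12:26456453-26456702 (minus). Irgm1 holds overlapping ISRE matches at −30 and −24, Phf11a 1 at −29, Bst2 overlapping matches at −130 and −124 and Rsad2 1 at −120 on the other strand. Bst2 also holds a GAS match at −136, which runs into the first ISRE match and is not marked by capitals of its own.
Irgm1: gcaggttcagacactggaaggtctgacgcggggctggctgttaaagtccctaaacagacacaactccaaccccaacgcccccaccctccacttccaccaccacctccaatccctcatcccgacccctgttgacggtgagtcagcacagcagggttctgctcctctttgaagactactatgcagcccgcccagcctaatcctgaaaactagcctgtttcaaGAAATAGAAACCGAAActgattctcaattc
Phf11a: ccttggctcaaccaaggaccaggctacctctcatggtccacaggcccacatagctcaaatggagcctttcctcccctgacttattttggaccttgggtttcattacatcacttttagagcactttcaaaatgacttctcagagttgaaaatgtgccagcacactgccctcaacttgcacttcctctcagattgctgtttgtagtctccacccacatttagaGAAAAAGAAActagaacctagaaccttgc
Xaf1: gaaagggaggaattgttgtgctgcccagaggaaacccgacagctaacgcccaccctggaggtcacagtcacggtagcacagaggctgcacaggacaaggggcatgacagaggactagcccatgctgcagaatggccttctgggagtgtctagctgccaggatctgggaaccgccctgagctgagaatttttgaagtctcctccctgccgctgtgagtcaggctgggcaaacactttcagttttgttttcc
Bst2: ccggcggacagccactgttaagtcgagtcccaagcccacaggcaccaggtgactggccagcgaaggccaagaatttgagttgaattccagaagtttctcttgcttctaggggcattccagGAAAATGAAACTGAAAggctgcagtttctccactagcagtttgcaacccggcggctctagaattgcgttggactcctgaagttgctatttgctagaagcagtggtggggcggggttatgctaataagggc
Rsad2: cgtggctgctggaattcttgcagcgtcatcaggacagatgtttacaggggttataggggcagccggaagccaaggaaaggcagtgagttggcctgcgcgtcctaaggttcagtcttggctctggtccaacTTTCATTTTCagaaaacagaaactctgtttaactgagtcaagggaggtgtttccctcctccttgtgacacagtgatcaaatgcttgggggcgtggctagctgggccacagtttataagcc
Irgm1, Phf11a, Xaf1, Bst2 and Rsad2 all belong to the higher genes, so genes with and without these letters in the window were among them. Phf11b, a neighbour of Phf11a, held 1 match, at −50.

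The same rule was applied to the skin library, which was not used to make it. It found 71 interferon-high cells among 6296 eligible (1.13%, 0.882 to 1.42). With every cell thinned to 1000 UMIs before the rule, the shares were 0.993% (0.790 to 1.23) in lung, with 72 shallower cells left out, and 0.270% (0.157 to 0.432) in skin. Strain, library and annotation differ together with tissue, so the part of each cannot be told apart. Barcodes were shared by both libraries in 82 cases, 2 of them interferon-high lung cells.

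In skin, 60 marker-free interferon-high cells were matched with 180 interferon-zero cells, and their 191355 UMIs make single genes noisy, with 309 of 5993 measured genes (5.16%) higher and 376 (6.27%) lower. In the rule's cells of skin 298 of 6341 (4.7%) were higher and 385 (6.07%) lower. Of 53 antiviral genes measured in both tissues, 38 were higher in lung, 29 in skin and 27 in both, which is 71.1% of the lung and 93.1% of the skin count. Over all 4486 genes measured in both tissues, 66 were higher in lung, 129 in skin and 38 in both, which is 57.6% of the lung and 29.5% of the skin count. The log2 ratio was above 0 for 52 antiviral genes in lung and 51 in skin, beside 2499 and 2160 of all these genes. Zbp1 stood at 183 against 36.6 CPM in skin, a ratio of 4.99 (2.83 to 9.02) and Bst2 stood at 319 against 96.0 CPM. Ifi27l2a stood at 1813 against 510 CPM, a ratio of 3.56 (3.04 to 4.17). Iigp1 had 1 UMI against 5 in skin, too few to place. Ifitm3, an antiviral membrane protein gene, had 1 UMI in skin interferon-high cells against 17, 5.23 against 29.7 CPM, and stood at 81.2 against 17.4 CPM in lung.

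**Figure D5:**
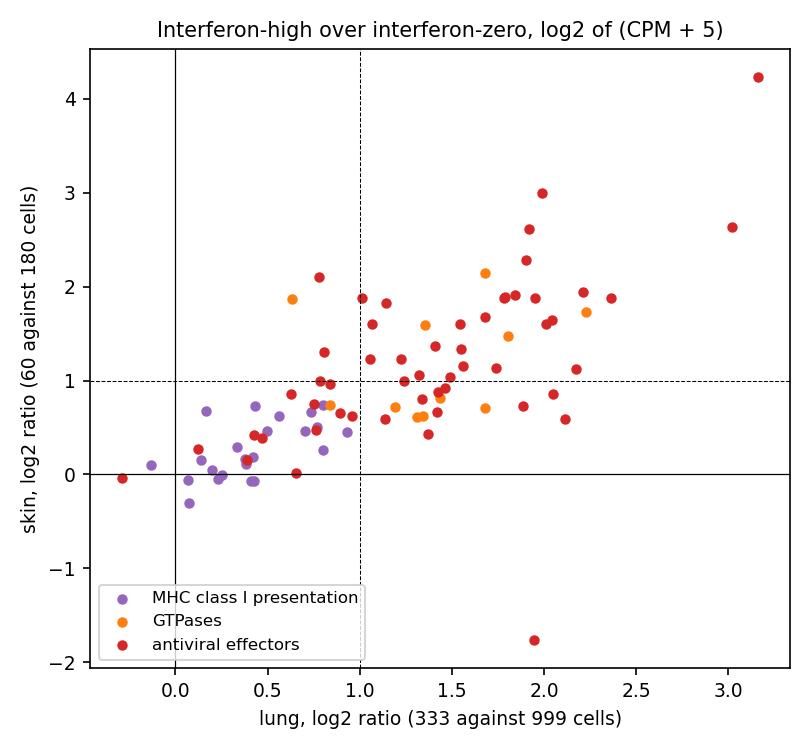
Each point is a gene measured in both tissues, placed by the log2 ratio of interferon-high over interferon-zero marker-free cells in lung (x) and skin (y). Dashed lines mark 2-fold higher. Most antiviral effectors (red) lie above 0 on both axes, and Ifitm3 is the point at −1.76 in skin.

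The effector list did not lean to the interferon-high cells in skin, where its median was −0.22, beside 0.33 in lung. Of its 26 genes measured in skin 0 were called, beside 5.16% of all genes higher and 6.27% lower there. Ccl5 stood at 73.2 against 113 CPM. MHC class I genes had a median of 0.19 in skin, beside 0.41 in lung. Of 23 measured 0 were called in either tissue, beside the same shares in skin and 1.65% of all genes higher and 0.0825% lower in lung. Of 20 core Treg genes measured in skin 2 were called higher, beside 5.16% of all genes there, and the median was −0.00231. The difference between tissues was not tested.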

How the data were processed

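Both deposited tables give raw UMI counts for each gene in each barcode that the authors kept as a cell. The submitters' processing notes name Cell Ranger and mm10 and give no version, the labels name 10x Single Cell 3' v2 chemistry, and the lung table carries software version 3.0.2 per the file headers. A second lung table of the same cells, with 92.1% of their UMIs, served as an alternative.

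The lung library held 24293511 UMIs (median 2353.5 per barcode) and skin 16190303 (median 2058). Filters, rule, matching, scale and thresholds are given with the results. The 5 rule genes were left out of totals and results. Levels carry exact 95% Poisson intervals, and a count of 0 was read against 3 counts per group. The comparison was tested on simulated data. Scrublet, run in scanpy 1.11.5, called 0 of 8641 lung cells and had not worked, so the 6% with the highest scores were removed as an alternative. Gene positions are from GENCODE M21 (GRCm38), promoters from RefSeq.

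Members and lists were chosen with earlier results of these data known. Named genes were the 20 highest and 10 lowest of at least 50 CPM in the rule's cells, without receptor and immunoglobulin segments, mitochondrial, ribosomal protein, haemoglobin and predicted genes, up to 4 of the widest per list, the sort genes and the interferon receptors. Other genes were picked after their values were seen. Marker-free cells were defined with 9 widely spread marker genes left out (Ighm, Igkc, Ctss, Cst3, Cd74, Pecam1, Sftpc, Scgb1a1, Lyz2) and 9 mural and keratinocyte genes added. Alternatives changed the matching, rule sum, scaling, pseudocount, floor, cells kept and lung table. Numpy 2.4.6, scipy 1.17.1, pandas 2.3.3 and matplotlib 3.10.9 were used. Some genes are not reported here.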

Additional observations from a re-analysis of the deposited data

Results flagged for a closer look

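Ier3, an early response gene, had a log2 ratio of 1.40 in the rule's interferon-high cells of lung and −1.55 in those of skin, opposite in direction, and this difference was not tested. Ramp2, an endothelial receptor component, likewise had 2.24 in lung and −1.16 in skin, also untested. Without cells carrying other-type markers the lung levels were 1.73 against 2.61 CPM for Ier3 (2 against 9 UMIs) and 4.32 against 4.34 CPM for Ramp2. Ramp2 was among the markers used to leave out those cells. The skin values rest on 1 against 16 UMIs for Ier3 and 2 against 18 for Ramp2.

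Lung cells outside the comparison also held at least 3 UMIs of the 5 rule genes. They made up 15 of 292 cells with no Cd3 UMI (5.14%, exact interval 2.90 to 8.33). Among cells with no Cd3 UMI and at least 10 endothelial UMIs they were 13 of 89 (14.6%, 8.01 to 23.7), and among those with at least 10 alveolar UMIs 0 of 31. Of cycling cells with Cd3 they were 17 of 124 (13.7%, 8.19 to 21.04), at a median depth of 8257.5 UMIs.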

How the results depend on the processing

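The count of higher antiviral effectors, 44, was between 31 and 52 under all alternatives run, within 1.5 times. The count of higher genes, 141, became 217 without depth matching, 221 with cells thinned to 1000 UMIs, 91 and 240 at rule sums of at least 2 and 5 UMIs, 214 and 83 with floors of 10 and 50 CPM, 369 without cells with 3 UMIs of any other-type marker (only 71 against 211 cells) and 80 in marker-free cells. The count of lower genes, 31, became 16 without matching, 61 thinned, 69 matched on genes detected, 69 at a sum of 5, 64 with totals that leave out mitochondrial and ribosomal protein genes, 49 at a floor of 10 CPM, 437 without any other-type marker, 4 in marker-free cells and 13 with at least 3 Cd3 UMIs. The share of interferon-high cells, 4.38%, became 8.92% and 1.70% at sums of 2 and 5, 0.993% thinned and 2.29% without any other-type marker. The cause of these shifts was not tested.

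Among named genes called at least 2-fold apart in the rule's cells, 17 log2 ratios turned in sign under an alternative. Turns in sign of genes within 2-fold, such as Ifnar2 and Ifngr1, are not counted. Without cells with any other-type marker these were Acvrl1, Hpgd and Tspan7 (−0.0224 each), Cldn5 (−1.20), Ramp2 (−0.90), Chil1, Lyz1 and Sftpd (1.17 each). In marker-free cells they were Aqp1 (−0.0517), Clec14a (−0.00202), Cyp4b1 (−0.14), Ier3 (−0.18), Lyz2 (0.24), Plvap (−0.10), Ramp2 (−0.00364) and Sftpc (0.0102), and with thinned cells Chil1 (0.0257). No paired analysis was possible because each tissue has 1 library and no result comes from a test. Depth limits what can be said of genes near 20 CPM, and more so in skin.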
